A study of Mus musculus with 18 samples.

Results

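The 31 genes described here make, sense, export, release and store cholesterol. They were chosen by name out of 50949 genes in the tables of a mouse glioma study. On the synthesis side, 18 genes encode enzymes of the pathway, and 3 were grouped as SREBP2 control genes: Srebf2, Insig1 and Stard4. The other 10 serve export and its control (Abca1, Abcg1, Nr1h3, Nr1h2 and Mylip), release from the lysosome (Npc1, Npc2 and Lipa), and storage or conversion to an oxysterol (Soat1 and Ch25h). The choice was made by name, with earlier results of these data known.

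All samples came from Boy/J mice with implanted brain tumours or from lines derived from such tumours; the ages of the animals are not given in the sources used here. One untreated tumour sample, driven by HRasV12 and dominant negative p53, was read with each single-cell method, 10x and Drop-seq. Bulk RNA came from 8 Ras-driven tumours, 4 from mice given vehicle and 4 from mice given PLX3397 at 100 mg/kg by gavage each day from day 7 after implantation until moribundity. PLX3397 inhibits CSF1R, the receptor that microglia and most macrophages need to survive. The vehicle tumours carry the treatment label "untreated" beside a title and protocol that name vehicle. CD11b+ cells, which are mostly myeloid, were taken from PDGFB-driven tumours after 3 days of PLX3397 (2 mice) or vehicle (1 mouse), begun at day 14. Untreated cultured lines came from Ras tumours (2 lines) and PDGF tumours (3 lines), and the 2 kinds of line grew in different serum-free media. Both media held EGF and FGF at 20 ng/mL, and the medium of the PDGF lines also held PDGF-AA and PDGF-BB, so driver and medium cannot be told apart. Samples of a group are numbered as mice or lines, and p-values measure the spread between them.

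Cells build cholesterol from acetyl-CoA in a long chain of reactions, and in the brain nearly all of it is made locally because lipoproteins of the blood do not cross the blood-brain barrier. When membranes of the endoplasmic reticulum run low in sterol, the transcription factor SREBP2 is cut free and switches on the synthesis enzymes through sterol regulatory elements, often beside CCAAT boxes bound by NF-Y. When sterol is plentiful, oxysterols and late intermediates activate the LXR receptors (Nr1h3 and Nr1h2), which switch on the exporters Abca1 and Abcg1 and the ligase Mylip, which marks lipoprotein receptors for destruction. Phagocytes take in cholesterol with debris and free it in the lysosome with Lipa, Npc1 and Npc2.

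The promoters were searched for the letters of the sterol regulatory element, the CCAAT box and the LXR element. RefSeq sequences of build GRCm38.p6 were at hand for 25 of the 31 genes, each with 250 bases before and 50 after the start of transcription. The first sequence is shown because it holds the sterol regulatory element, and the others set the CCAAT box of a synthesis enzyme beside that of export and lysosomal genes. Only bases before the start are printed, none overlaps an exon of the GENCODE annotation, and capitals mark the element TCACNCCAC or the CCAAT box on either strand. Hmgcs1 (chr13:119690201-119690350, plus strand) encodes the enzyme that makes HMG-CoA. Nsdhl (chrX:72918441-72918520, plus), Sc5d (chr9:42264301-42264380, minus) and Ebp (chrX:8193513-8193592, minus) act late in the pathway. Mylip (chr13:45389662-45389741, plus) and Lipa (chr19:34527475-34527554, minus) lie on the other side.
Hmgcs1: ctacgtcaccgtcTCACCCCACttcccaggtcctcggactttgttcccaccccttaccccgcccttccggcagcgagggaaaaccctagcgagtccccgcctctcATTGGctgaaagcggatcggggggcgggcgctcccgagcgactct
Nsdhl: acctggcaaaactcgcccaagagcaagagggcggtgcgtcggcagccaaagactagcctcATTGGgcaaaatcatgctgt
Sc5d: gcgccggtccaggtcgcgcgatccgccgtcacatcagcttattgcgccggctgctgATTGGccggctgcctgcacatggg
Ebp: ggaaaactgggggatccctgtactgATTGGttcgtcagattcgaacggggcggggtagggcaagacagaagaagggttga
Mylip: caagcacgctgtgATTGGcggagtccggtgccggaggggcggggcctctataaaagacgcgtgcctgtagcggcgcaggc
Lipa: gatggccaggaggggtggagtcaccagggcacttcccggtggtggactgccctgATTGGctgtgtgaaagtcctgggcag

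In Hmgcs1 the element TCACNCCAC begins 137 bases before the start and the inverted CCAAT box 45 bases before it. Hmgcs1 was the only one of the 25 genes with these letters in its window, against 1.24% of all 32851 promoters of the same length. CCAAT on either strand stood in 16 of 17 synthesis-side genes and in 4 of 8 of the others, against 37.4% of all promoters. The DR4 element that LXR binds was in none of the 25 windows and in 0.0822% of all. The 2 short motifs do not overlap each other in the sequences shown. These matches describe letters only.

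In single cells the synthesis enzymes summed to more in an unnamed Matn4 cluster than in macrophage-like cells, and the lysosomal genes to less. In the 10x library the 18 synthesis enzymes together gave 921 CPM (counts-per-million of UMIs; 95% Poisson interval 906 to 936) in the largest cluster with high counts, whose leading genes include Matn4, and 291 (276 to 306) in the macrophage-like cluster. The sum of the 3 lysosomal genes ran the other way, with 315 CPM in the Matn4 cluster and 1671 in macrophage-like cells. Npc2 alone made 1462 of the 1671, and Npc1 was lower in macrophage-like cells (58.2 against 95.8). Drop-seq gave 774 against 321 for the enzymes and 288 against 1953 for the lysosomal genes in its own Matn4 and macrophage-like clusters. There Npc2 made 1748 of the 1953, and Npc1 stood at 47.1 in both clusters. That Matn4 cluster was the largest of the Drop-seq library and the shallowest, with a median of 947 UMIs per cell. Each method read 1 sample, so these are values of those libraries with no test, and the intervals cover counting error only. The members were left out when cells were clustered.

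**Figure D1:**
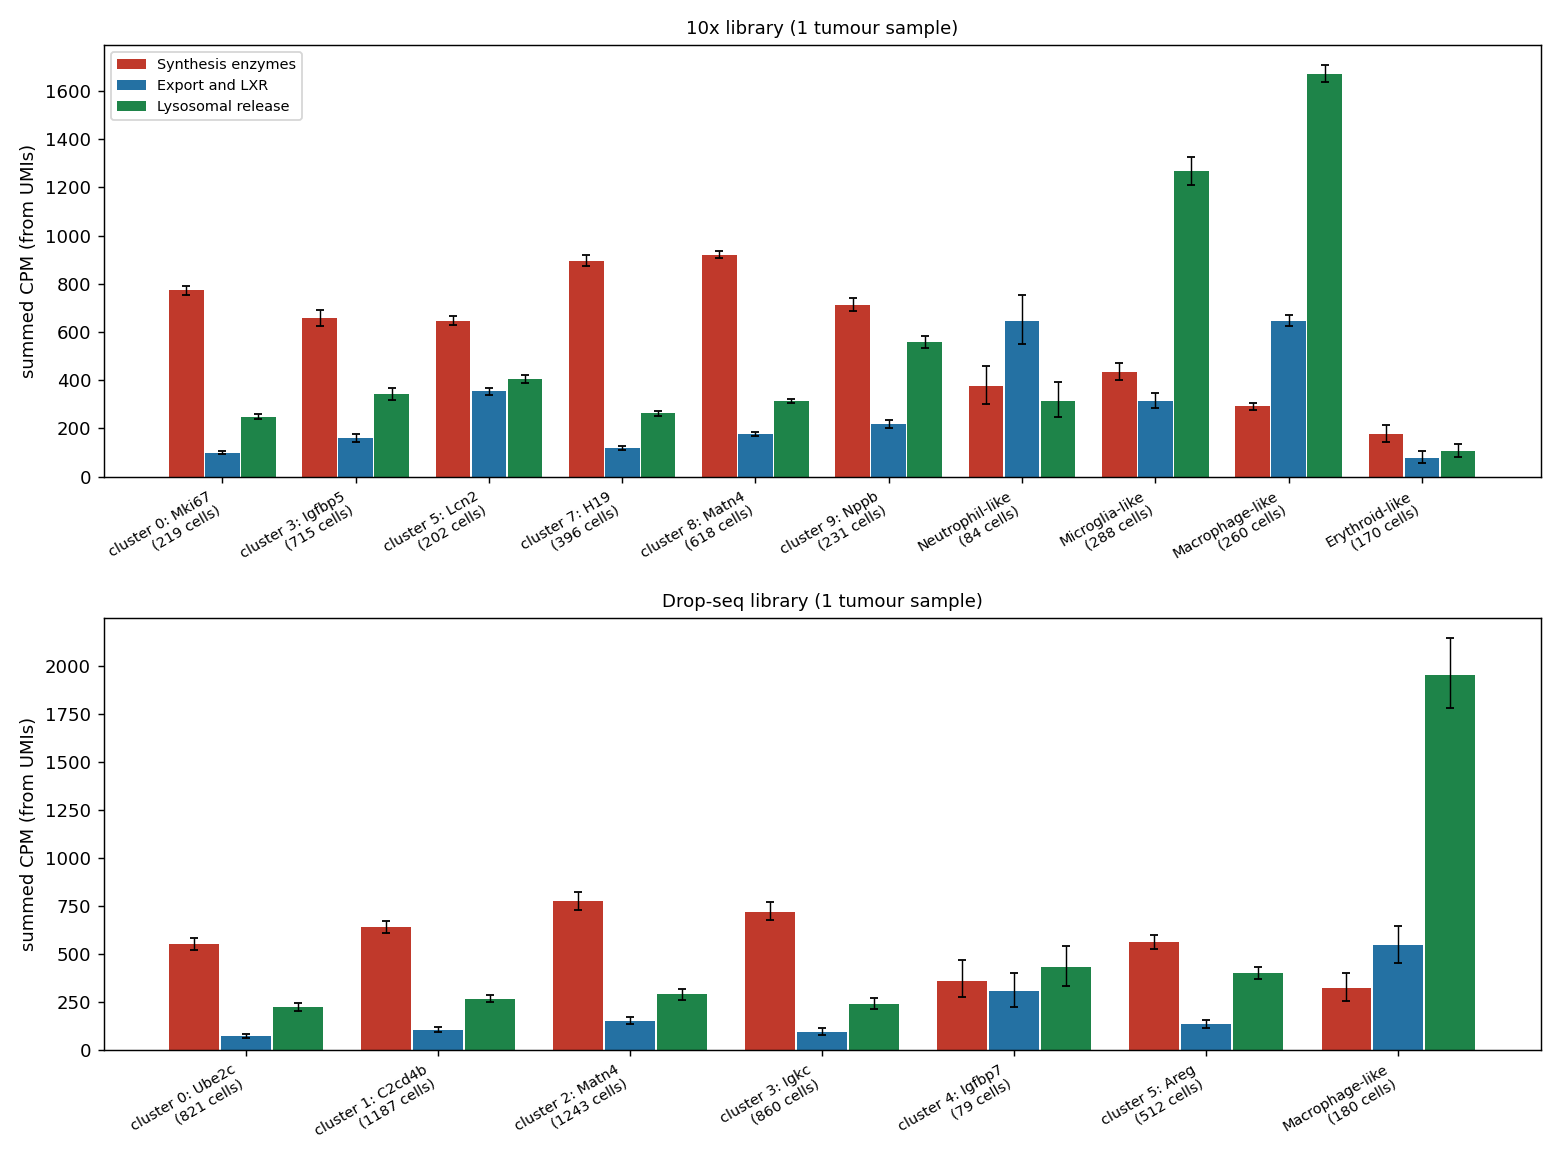
Summed CPM, from UMIs, for the 18 synthesis enzymes, the 5 export and LXR genes and the 3 lysosomal genes in each cluster of at least 50 cells, with 95% Poisson intervals, for the 10x (top) and Drop-seq (bottom) library. Unnamed clusters carry their number and a leading gene; in 10x the synthesis bar is the tallest of the 3 in every unnamed cluster drawn, and the lysosomal bar is the tallest in macrophage-like (1671) and microglia-like (1266) cells.

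Gene by gene in 10x, 14 of the 18 synthesis enzymes were at least 2-fold lower in macrophage-like cells than in the Matn4 cluster, beside 38.1% of the 12247 genes with at least 50 UMIs in both together. Of the 14, 7 had 5 to 40 UMIs in macrophage-like cells and met that minimum through the deeper Matn4 cluster, so the count is a description. Hmgcs1 gave 32.6 CPM in macrophage-like cells and 200 in the Matn4 cluster. Sqle, the squalene epoxidase, gave 4.68 and 73.9. Lss, which closes the rings to form lanosterol, gave 0.936 and 17.3, the former from 5 UMIs. Cyp51, the demethylase that acts on lanosterol, gave 13.3 and 69.7. The 4 enzymes outside that count were Pmvk (42.5 and 66.3), Tm7sf2 (3.74 and 7.07), Mvd (15.9 and 13.8) and Ebp (71.9 and 28.3). Ebp, a sterol isomerase, was thus 2.54-fold higher in macrophage-like cells. Srebf2, the gene of SREBP2 itself, gave 15.9 against 46.6.

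The export, lysosomal and oxysterol genes were higher in macrophage-like cells in 6 of 10 cases by the same 2-fold rule, beside 15.4% of genes. Among these, Mylip, Nr1h3 and Ch25h had 39, 35 and 1 UMIs in the Matn4 cluster. Those genes met the minimum on UMIs through macrophage-like cells (557, 84 and 233 UMIs), so this count too is a description. Mylip gave 104 CPM against 2.38 in the Matn4 cluster, a 43.4-fold difference. Npc2, which hands cholesterol to Npc1 in the lysosome, gave 1462 against 197, and Lipa, the acid lipase that frees it from its esters, gave 151 against 21.9. Abca1, the main exporter to lipid-poor particles, gave 401 against 96.3, and Nr1h3 gave 15.7 against 2.13. Ch25h, which hydroxylates cholesterol, had 233 UMIs in macrophage-like cells and 1 in the Matn4 cluster. Npc1 did not follow its partner: 58.2 in macrophage-like cells and 95.8 in the Matn4 cluster. Nr1h2, the more widely expressed LXR, gave 40.4 and 33.0.

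**Figure D2:**
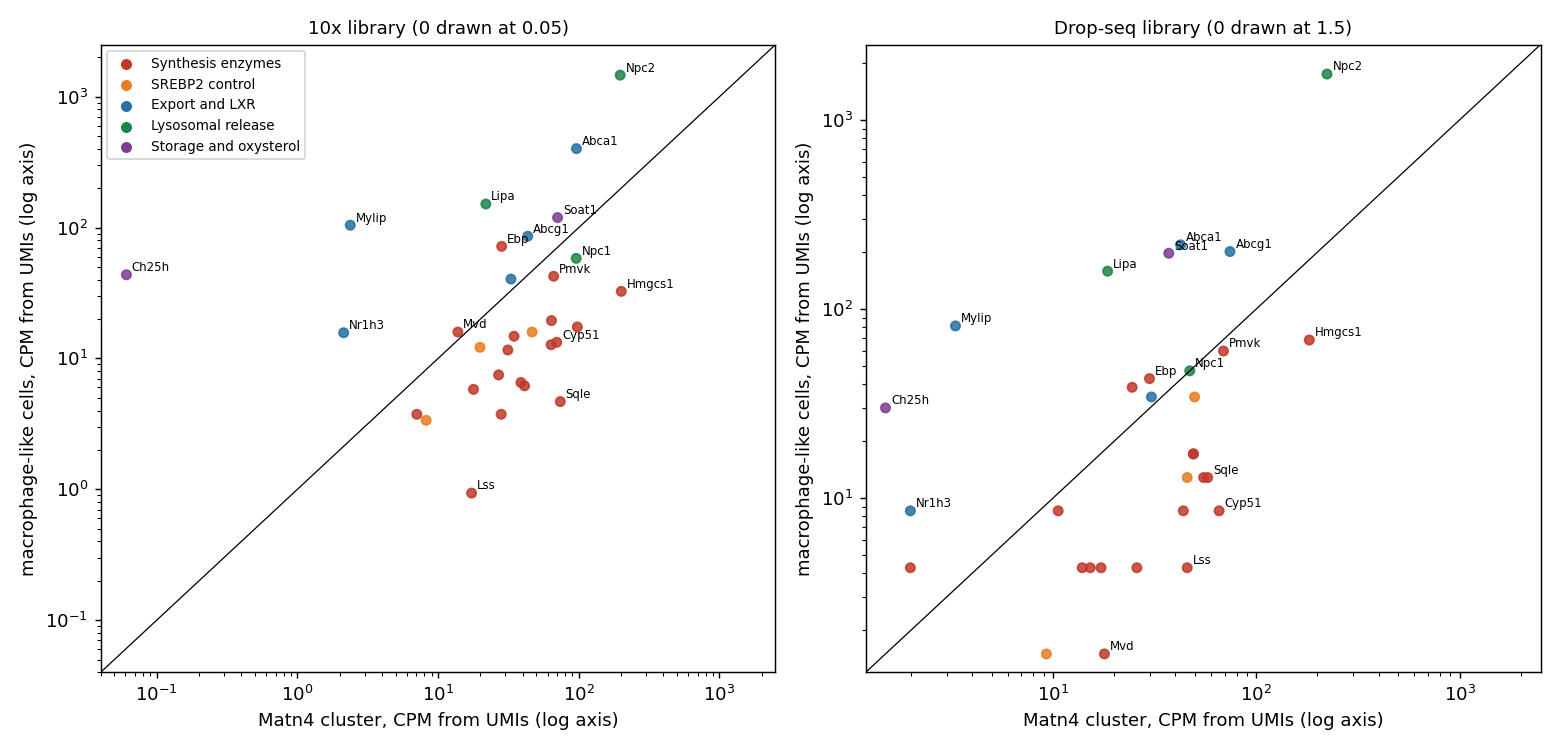
CPM for each of the 31 genes in the Matn4 cluster (x axis) and in macrophage-like cells (y axis), both on log axes, in the 10x (left) and Drop-seq (right) library; the line marks equal levels, colours mark the role, and some genes are named. Most synthesis enzymes lie under the line, while Npc2, Lipa, Mylip, Abca1 and Ch25h lie above it in both libraries.

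Drop-seq was shallower, and 19 of the 31 genes reached 50 UMIs in the 2 clusters together, mostly through the much larger Matn4 cluster, so its counts of genes are given as values only. Of the 10 synthesis enzymes that reached it, 8 were at least 2-fold lower in macrophage-like cells, where 29.4% of 5757 genes were. Cyp51 gave 8.57 CPM against 65.6, from 2 and 99 UMIs, and Hmgcs1 gave 68.5 against 182. Ebp again lay above the line, at 42.8 against 29.8. At least 2-fold higher, as were 8.3% of genes, were Abca1 (218 against 42.4), Abcg1 (201 against 74.3), Npc2 (1748 against 223), Lipa (158 against 18.6) and Soat1 (197 against 37.1), the enzyme that esterifies cholesterol for storage. Mylip gave 19 UMIs in macrophage-like cells and 5 in the Matn4 cluster, or 81.4 and 3.31 CPM. Idi1 was near 0 throughout Drop-seq, with 1.99 to 6.22 CPM in clusters of at least 50 cells, while 10x gave 63.6 in its Matn4 cluster.

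Other myeloid clusters of the 10x library differed from the macrophage-like one in their synthesis and lysosomal sums. Microglia-like cells gave 434 CPM over the synthesis enzymes and 1266 over the lysosomal genes, with Npc2 at 1109. Neutrophil-like cells gave 374 and 314, so they had the low synthesis level without the high lysosomal one. Their export genes summed to 645, with Abcg1 at 227 and Mylip at 147, where 1 UMI made 3.98 CPM. Erythroid-like cells, which make little RNA beyond globin, gave 178 over the synthesis enzymes at a median of 2326.5 UMIs per cell, against 15502 in macrophage-like cells. Microglia-like cells were as shallow, with a median of 2488.5 UMIs. Neural progenitor markers summed to 1783 CPM in microglia-like cells, 333 in macrophage-like cells and 4998 in the Matn4 cluster, and the part of free RNA in the enzymes' levels was not tested. The macrophage list summed to 7791 in microglia-like and 11814 in macrophage-like cells, and the microglia list to 2083 and 2034, so the 2 names are close to each other.

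Among the unnamed clusters with neural progenitor markers, the synthesis level ranged from 648 in the cluster led by Lcn2 to 921 in the Matn4 cluster, and the dividing Mki67 cluster gave 774. The Lcn2 cluster also had the most Abca1 of these, 282 CPM against 48.5 to 153 in the others. A cluster of 38 cells led by Alb, Ttr and Krt18 had the highest synthesis level of the library, 3732 CPM, with Hmgcs1, Idi1 and Fdft1 each at 441. Its median was 679 UMIs per cell, and 2 UMIs in the whole cluster made 67.8 CPM, so these levels rest on few UMIs. The cluster was left unnamed. Nr1h3 was highest in the mixed endothelial, pericyte and fibroblast cluster of 49 cells, at 105 CPM. The Drop-seq cluster with the same markers gave 87.0, where 1 UMI made 6.22 CPM. Ch25h in 10x was at 43.1 in the mixed cluster, 43.6 in macrophage-like and 19 in microglia-like cells, and at 1.6 or less elsewhere.

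In the Ras tumours PLX3397 did not separate the groups for any of the 31 genes. None passed the test (edgeR quasi-likelihood, adjusted p under 0.05), where 0% of 18366 genes did, and none reached an unadjusted p under 0.05, as 3.53% of genes did. The groups overlapped for all 31, while 2.54% of genes had groups that did not overlap. DESeq2 called 178 genes and none of the 31. Log2 fold changes (PLX3397 over vehicle) ran from -0.51 for Mylip to 0.29 for Nr1h3, with a median of -0.09 over the synthesis enzymes, -0.11 over the 10 other-side genes and 0.00 over all genes. The median of the synthesis enzymes turned to 0.21 without vehicle tumour 4, and that of the other-side genes to 0.01 without vehicle tumour 1. In whole tumours fewer cells of a type and less RNA per cell cannot be told apart.

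The tumours differed from one another within each treatment, and most of the enzymes were high and low in the same tumours. Cyp51 stood at 61.8, 52.7, 104 and 216 CPM in vehicle tumours 1 to 4 and at 55.1, 37.1, 153 and 150 in PLX3397 tumours 1 to 4. Idi1, which makes the reactive isoprene unit, stood at 26, 21.1, 47.8 and 82.8 with vehicle and 18.2, 10.9, 64 and 65 with PLX3397, a 7.59-fold range and the widest of the enzymes. Insig1, the sterol sensor that holds SREBP2 back and is itself an SREBP target, stood at 47.2, 46.6, 59.7 and 102, then 47.7, 34.3, 81.7 and 76.0. Vehicle tumour 4 and PLX3397 tumours 3 and 4 were the 3 highest for each of the 3 genes. Vehicle tumour 3 came next, and the rest were lower.

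Those 3 tumours were the 3 highest of 8 for 12 of 18 synthesis enzymes and for 3 of 3 SREBP2 control genes, as they were for 12.5% of all genes tested. The 3 tumours were picked after their values were seen, as the ones with the highest summed synthesis level, so no test is given. Acat2, Hmgcs1, Idi1, Fdps, Fdft1, Sqle, Lss, Cyp51, Msmo1, Nsdhl, Hsd17b7 and Sc5d made up the 12. The 6 enzymes outside were Mvk, Pmvk, Mvd, Tm7sf2, Ebp and Dhcr7. Summed over the enzymes the level was 891, 819, 1075 and 1756 CPM with vehicle and 787, 651, 1468 and 1360 with PLX3397.

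Export genes known as LXR targets were lowest in the same tumours. Abcg1, which exports cholesterol to lipoproteins, stood at 106, 92.8, 75.6 and 27.8 CPM in vehicle tumours 1 to 4 and 104, 91.2, 32 and 35.4 in PLX3397 tumours 1 to 4. Mylip stood at 29.4, 27.4, 21.4 and 13.6, then 20.4, 28.5, 7.36 and 8.39. Abca1 stood at 226, 272, 196 and 89.2, then 196, 373, 130 and 120. For these 3 of the 5 export genes the same 3 tumours were the 3 lowest, as they were for 8.72% of all genes. Of the receptor genes, Nr1h2 ranged from 69.1 to 97.3 CPM over the 8 tumours. Nr1h3 ranged from 2.43 in PLX3397 tumour 3 and 3.17 in vehicle tumour 4 to 8.66, with PLX3397 tumour 4 in the middle at 5.24.

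**Figure D3:**
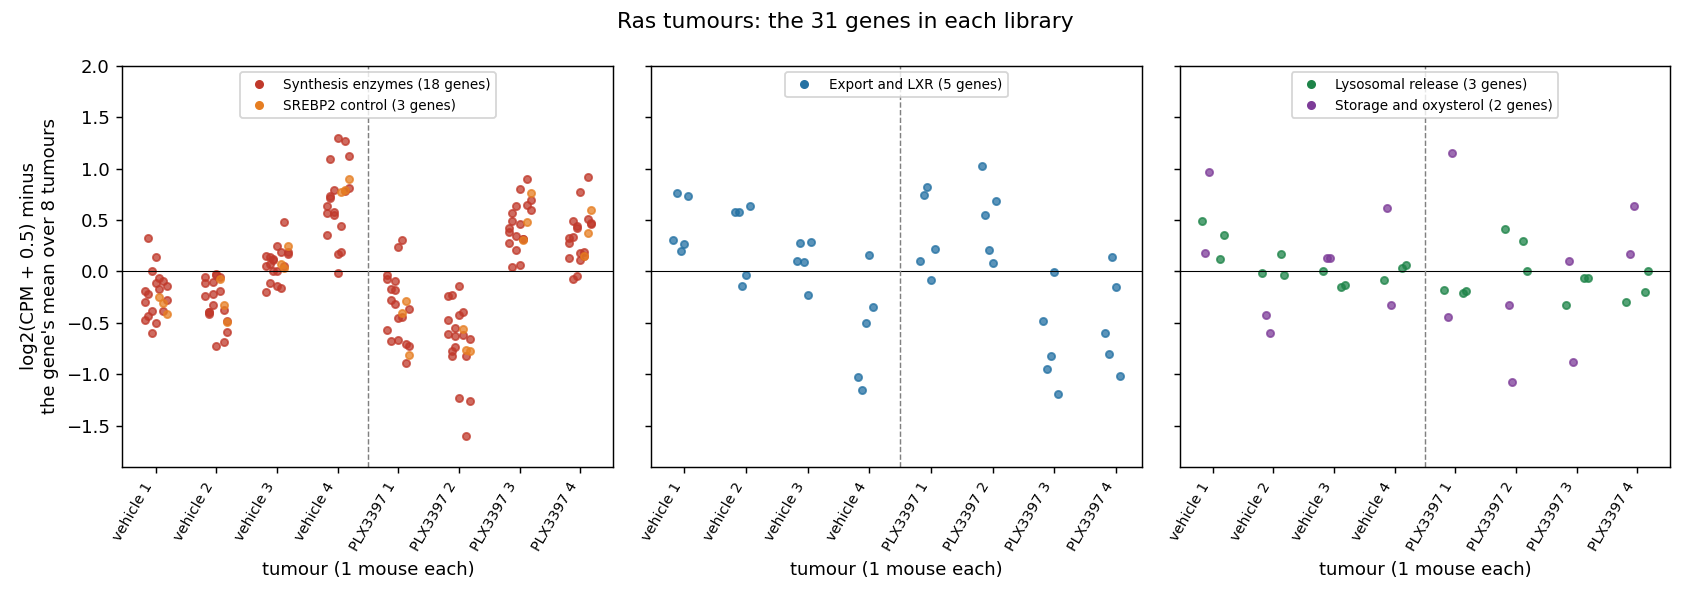
Each point is a gene in a tumour, as log2(CPM + 0.5) minus that gene's mean over the 8 tumours, for the synthesis side (left), export and LXR (middle), and lysosomal, storage and oxysterol genes (right); the dashed line parts vehicle from PLX3397. Most synthesis-side points lie above 0 in vehicle 4 and PLX3397 3 and 4, where Abca1, Abcg1 and Mylip lie below 0; each tumour is 1 mouse.

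The lysosomal genes varied least. Npc2 ranged from 341 to 498 CPM and Npc1 from 95.2 to 136 over the 8 tumours, and the median standard deviation of the 3 lysosomal genes was 0.19 on the log2 scale, beside 0.45 for the enzymes, 0.67 for the export genes and 0.32 for all genes.

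Markers of other cells also differed between the tumours. The oligodendrocyte list summed to 453, 972, 770 and 64.7 CPM in vehicle tumours 1 to 4 and to 1783, 803, 353 and 574 in PLX3397 tumours 1 to 4. The neuron list summed to 1069, 3417, 1998 and 266, then 3728, 1370, 1224 and 1286. Both were lowest in vehicle tumour 4, as was the astrocyte list. The astrocyte list summed to 1441, 2961, 2207 and 475 CPM in vehicle tumours 1 to 4 and to 3997, 2460, 1336 and 1930 in PLX3397 tumours 1 to 4, so PLX3397 tumour 4 lay above vehicle tumour 1. The dividing-cell list summed to 815, 609, 872 and 1087, then 537, 632, 1032 and 916, and its 3 highest tumours were the same 3. The microglia list summed to 590, 486, 568 and 319, then 471, 350, 154 and 184, with the same 3 tumours lowest. The macrophage list summed to 804 to 1304 with vehicle and 232 to 655 with PLX3397, and all 11 of its genes were detected in each tumour. The neural progenitor list stayed between 1047 and 1240. The part of these cells in the results was not tested.

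Other genes of sterol and lipid handling did not pass the test in the Ras tumours: 0 of 7 for SREBP processing, 0 of 6 for the isoprenoid branch, 0 of 11 for fatty acid synthesis and 0 of 21 for sterol transport and oxysterols. Unadjusted p under 0.05 was reached by 3 of these genes, 1 higher and 2 lower. The higher one was Me1, the malic enzyme that supplies NADPH (59.4 ± 1.91 CPM with vehicle and 71.3 ± 4.13 with PLX3397, SD, n = 4 each; log2 fold 0.26, edgeR adjusted p = 1.00). The lower ones were Soat2 and Cyp27a1. Soat2 gave a log2 fold of -1.04 (5.87 ± 1.81 and 2.85 ± 0.985 CPM) and Cyp27a1, which makes an oxysterol in mitochondria, -1.53 (7.48 ± 3.39 and 2.59 ± 1.69 CPM), with adjusted p of 0.915 and 1.00 from edgeR.

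In CD11b+ cells of PDGFB tumours, 2 of the 31 genes passed the test after 3 days of PLX3397, both of them lower. That share was near the 6.35% of all genes that passed. Ch25h stood at 84.3 CPM with vehicle and at 10.9 and 16.3 with PLX3397 (log2 fold -2.63, SE 0.26, edgeR adjusted p = 0.0345). Pmvk, the kinase of the mevalonate chain, stood at 60.7 with vehicle and at 31.8 and 31.9 with PLX3397 (log2 fold -0.93, SE 0.15, edgeR adjusted p = 0.0435). Over all 15052 genes 6.35% passed, 4.57% higher and 1.78% lower. The single vehicle mouse is assumed to vary as the pair of treated mice did, and the fit has 1 residual degree of freedom among the samples.

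The other members did not pass. An unadjusted p under 0.05, reached by 29.3% of all genes, was reached by 4 more: Lss (5.67 CPM with vehicle, 9.23 and 10.8 with PLX3397, log2 fold 0.82), Dhcr7 (33.7, then 45.4 and 44.5, log2 fold 0.42), Abca1 (918, then 1534 and 1346, log2 fold 0.65) and Npc1 (229, then 357 and 297, log2 fold 0.51). Abca1 was called by DESeq2 (adjusted p = 0.0474) and not by edgeR (0.155). The median log2 fold was 0.02 over the synthesis enzymes, 0.29 over the other-side genes and 0.01 over all genes. Without PLX3397 mouse 1 the first 2 were 0.20 and 0.12, and without mouse 2 they were -0.17 and 0.50. Of the 10 other-side genes 9 had a fold above 0, Ch25h being the exception, where 7603 of the 15052 genes did.

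**Figure D4:**
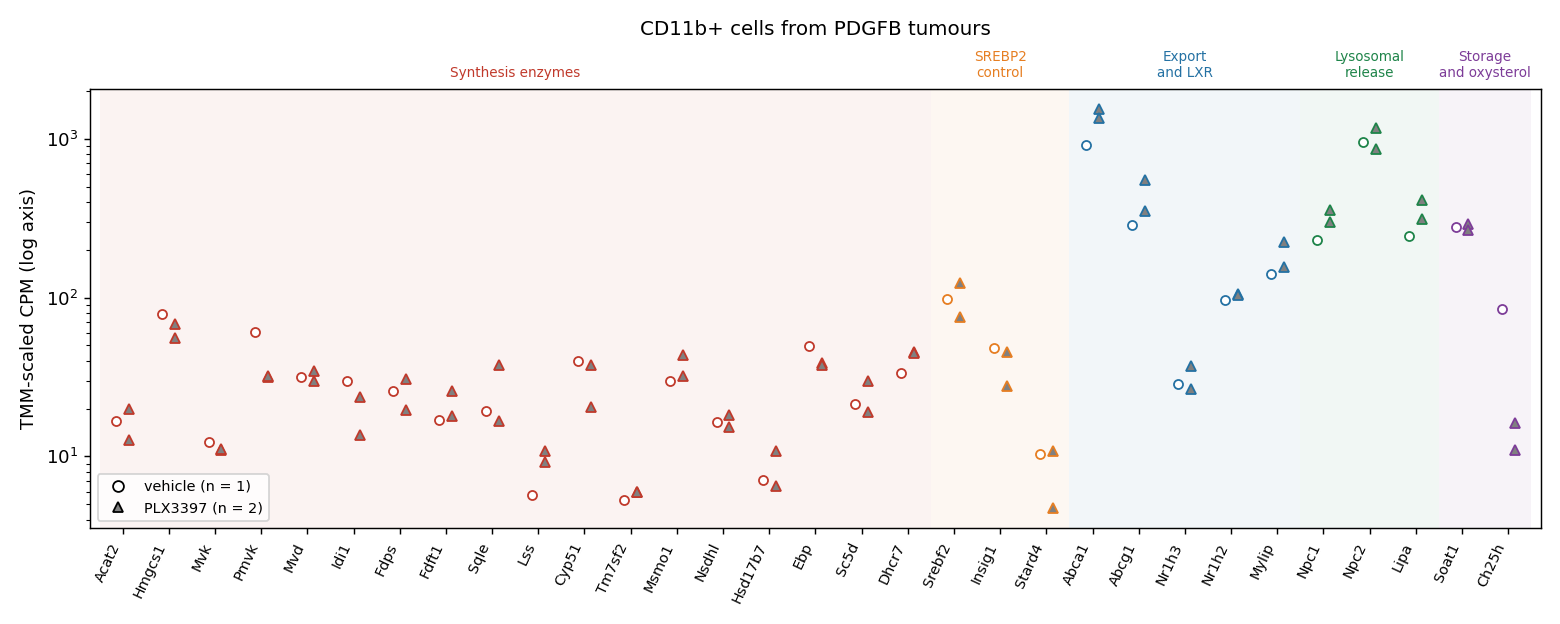
TMM-scaled CPM on a log axis for each of the 31 genes in CD11b+ cells from PDGFB tumours; open circles are the vehicle mouse and filled triangles the 2 PLX3397 mice, and shading marks the roles. Ch25h (84.3 against 10.9 and 16.3) and Pmvk (60.7 against 31.8 and 31.9) show the gaps that passed the test, and Abca1 and Npc2 are the most abundant.

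The 2 PLX3397 mice differed from each other. Mouse 2 was above mouse 1 for 16 of 18 synthesis enzymes and 3 of 3 SREBP2 control genes, and for 0 of 5 export genes and 0 of 3 lysosomal genes, where 53.4% of all genes were higher in mouse 2. Sqle stood at 16.8 in mouse 1 and 37.8 in mouse 2, Cyp51 at 20.4 and 37.9, and Srebf2 at 75.1 and 123 CPM. Abcg1 stood at 553 and 349, Mylip at 224 and 156, and Lipa at 409 and 314. The vehicle mouse lay between them for Sqle (19.3) and Srebf2 (98.1), above both for Cyp51 (40.1), and below both for Abcg1 (286), Mylip (141) and Lipa (245). With 1 mouse at each level this is a description.

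Marker sums shifted in the same cells. The neural progenitor list summed to 137 CPM with vehicle and to 417 and 468 with PLX3397, the astrocyte list to 126, then 717 and 677, and the neutrophil list to 315, then 516 and 790. The fibroblast list summed to 150, then 547 and 1015, the pericyte list to 28.8, then 67.9 and 113, the endothelial list to 202, then 254 and 420.3, the oligodendrocyte list to 210, then 502 and 365, and the neuron list to 25.7, then 115 and 121. The dividing-cell list summed to 1240, then 275 and 395. The microglia list summed to 3059, then 2992 and 2227, and the macrophage list to 6256, then 5767 and 5537, with every gene of both lists detected. Their part in the results was not tested.

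In the fatty acid synthesis list, 3 of 11 genes passed the test as higher and 0 as lower in CD11b+ cells. Over all genes 4.57% passed as higher. Of the 11 genes, 6 had a fold above 0 and 5 below 0. Me1 went from 4.07 CPM with vehicle to 19.4 ± 1.59 (SD, n = 2; log2 fold 2.25, edgeR adjusted p = 0.0345) and Fads2, a fatty acid desaturase, from 9.28 to 26.6 ± 2.19 (log2 fold 1.52, edgeR adjusted p = 0.0354). Scd1, a desaturase and LXR and SREBP target, was the third (log2 fold 1.84; named after its value was seen). None of 7 SREBP processing genes, 6 isoprenoid genes or 21 sterol transport genes passed. Lrp8, a lipoprotein receptor, came nearest in the last list (10.6 CPM, then 32.2 ± 8.79; log2 fold 1.6, edgeR adjusted p = 0.0565).

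Between the tumour lines, no gene of the 31 passed the test, and 0% of the 17475 genes tested did, while 16.3% had an unadjusted p under 0.05. Ch25h was below the filter on low counts, at 0 to 0.307 CPM in the 5 lines, and the other 30 were tested. Of the 18 synthesis enzymes 16 had a log2 fold (Ras over PDGF lines) above 0, where 8888 of all genes did, and the lines overlapped for 12 of the 18. The median log2 fold was 0.36 over the enzymes, 0.28 over the 9 other-side genes tested and 0.01 over all genes. The other-side median turned to -0.15 without Ras line 1 and was 0.15 by DESeq2 and 0.14 with no filter on low counts. For 6 enzymes both Ras lines lay above all 3 PDGF lines, as 17.9% of all genes did: Cyp51, Msmo1, Nsdhl, Hsd17b7, Ebp and Sc5d.

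Hsd17b7, a reductase of sterol demethylation, stood at 91.5 and 80.0 CPM in the Ras lines and at 57.9, 51.6 and 41.3 in the PDGF lines (log2 fold 0.77, SE 0.21, edgeR adjusted p = 0.237). Sc5d, a desaturase of the last steps, stood at 257 and 152, against 143, 106 and 93.6 (log2 fold 0.84, edgeR adjusted p = 0.303). Both had an unadjusted p under 0.05. The early enzymes overlapped, as did the later Lss, Tm7sf2 and Dhcr7. Hmgcs1 stood at 500 and 859 in the Ras lines and at 922, 395 and 746 in the PDGF lines. Pmvk, also early, had the largest log2 fold of the enzymes, 0.99. It stood at 52.4 to 115 CPM in the Ras lines and 35.8 to 53.9 in the PDGF lines. Leaving out PDGF line 1, which had the highest Hmgcs1, Lss and Dhcr7 of the 5, raised the median of the enzymes to 0.66.

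On the export side Nr1h3 was low in every line, at 2.11 and 2.30 CPM in the Ras lines and 0.519, 0.787 and 1.01 in the PDGF lines (log2 fold 1.51, edgeR adjusted p = 0.272, DESeq2 0.0335). Abcg1 was the reverse, at 63.1 and 6.05 in the Ras lines and 73.8, 180 and 116 in the PDGF lines, and was the only member whose Ras lines lay below all PDGF lines, as 20.7% of all genes did. Ras line 2 alone held the low value of 6.05. Npc1 stood at 162 and 118 against 150, 360 and 227, with overlap. Macrophage markers summed to 60.5 to 139 CPM in the 5 lines, with 3 to 6 of the 11 genes at 0.

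**Figure D5:**
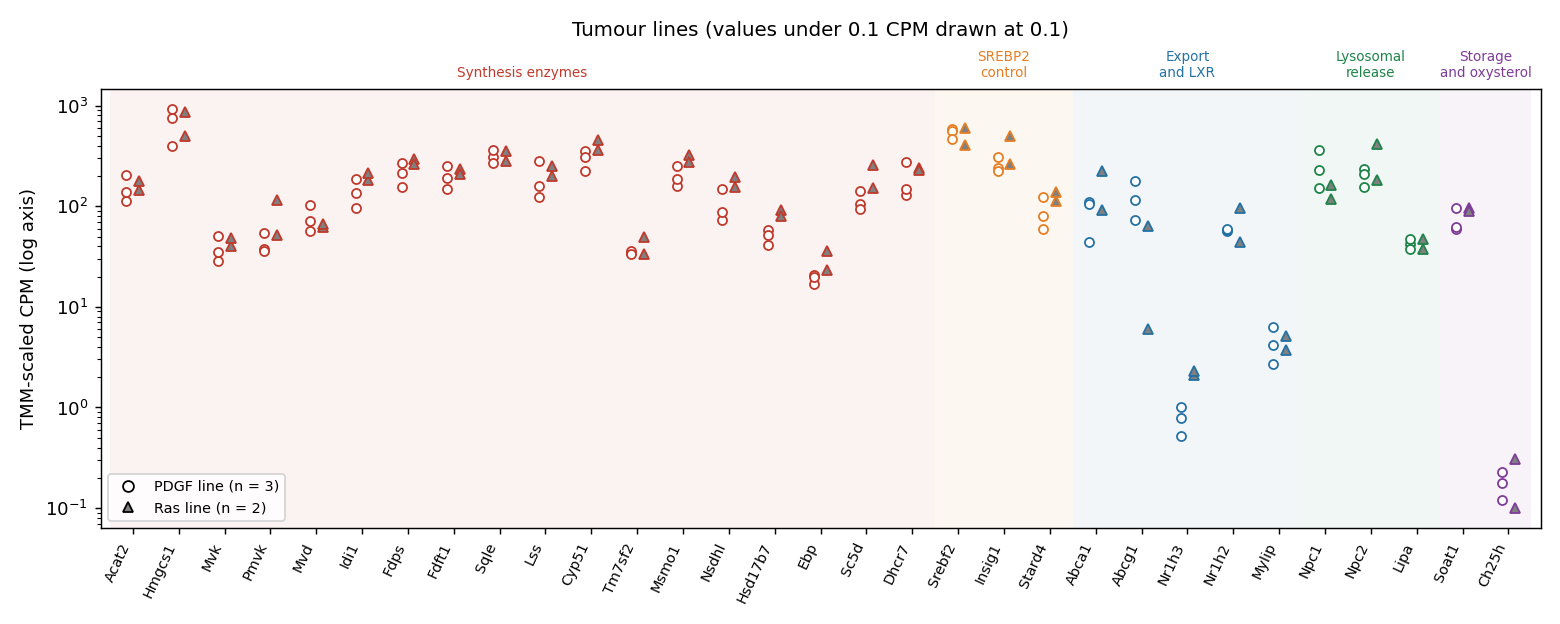
TMM-scaled CPM on a log axis for each of the 31 genes in the cultured lines; open circles are the 3 PDGF lines and filled triangles the 2 Ras lines, and shading marks the roles. Hmgcs1, Cyp51 and Srebf2 are among the highest, Mylip, Nr1h3 and Ch25h are the lowest, and the Ras triangles lie above every circle for Hsd17b7 and Sc5d.

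Among the pathway lists, 0 genes passed in the lines. Srebf1, the fatty-acid-directed relative of Srebf2, averaged 485 CPM over both Ras lines, with an SD of 442, and 86.1 over the 3 PDGF lines, with an SD of 48.7 (log2 fold 2.50, edgeR adjusted p = 0.26). Plin2, which coats lipid droplets, was 107 ± 73.5 and 27.2 ± 9.16 (log2 fold 1.98, edgeR adjusted p = 0.237). All 11 fatty acid synthesis genes had a fold above 0, with a median of 0.39.

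Levels per gene length place the members against each other within a group. In TPM (transcripts-per-million), Npc2 was the highest of the 31 in the Ras tumours, with 274 ± 32.4 (SD, n = 4) in vehicle tumours, and Nr1h3 the lowest, with 6.5 ± 1.66. Hmgcs1 (97.1 ± 35.3), Srebf2 (110 ± 32.1), Nr1h2 (90.4 ± 8.72) and Cyp51 (87.6 ± 55.2) followed Npc2 and did not differ beyond their spread. In CD11b+ cells with vehicle the order was Npc2 at 580, Abca1 at 294, Ch25h at 202, Mylip at 145 and Abcg1 at 130 TPM, and the synthesis enzymes lay between 1.75 for Lss and 118 for Pmvk. After PLX3397 Ch25h had rank 16 of the 31, at a mean of 34.1 TPM. In the lines Hmgcs1 came first, at a mean of 571 TPM in the Ras lines and 594 in the PDGF lines, and Ch25h last, at 0.442 and 0.505. The 3 bulk tables were set on their own scales, so levels of different tables stand side by side without a test. The 31 genes took 0.202 to 0.292% of the counts of a Ras tumour, 0.380 to 0.526% of those of CD11b+ cells and 0.421 to 0.574% of those of a line. Exons of Fdft1 overlap those of Ctsb, Cyp51 those of Akap9 and Npc1 those of Rmc1 on the opposite strand, and Fdps shares exonic bases with Gm43738 and Tm7sf2 with Vps51 on the same strand. Whether counting used strand is not given in the sources used here, so the levels of these 5 genes are uncertain, as is that of Acat2 beside its near copy Acat3.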

How the data were processed

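Gene counts of 3 bulk tables and UMI counts of the 10x and Drop-seq tables were used as the authors deposited them. Per the submitters' processing notes the tools included featureCounts 1.6.2, STAR 2.6.1e, Trim Galore 0.4.2 and Cell Ranger, on GRCm38; their order and whether strand was used are not given in the sources used here. The 31 members, the pathway lists and the marker lists were chosen with earlier results of these data known. All members are reported, and of each pathway list at most the 2 genes with the smallest p in a comparison, besides Scd1 in CD11b+ cells; 1 gene first placed among the SREBP processing genes is not reported here and is left out of the counts of that list.

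Bulk libraries held 26777174 to 35806684 counts. In the table of the lines, 5 columns matched no sample and were not used. Counts without a gene name were left out (up to 0.36% of a library). Each comparison was fitted on its own groups with edgeR 4.0.16 (R 4.3.3; TMM, filterByExpr, robust quasi-likelihood, Benjamini-Hochberg over all genes tested; threshold 0.05), tested on simulated data first. CPM are scaled by TMM, and TPM use exon-union lengths of GENCODE. Alternatives were DESeq2 1.42.0, its size factors in edgeR (RLE), no filter on low counts, each library left out and a replicate block.

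Of 4384 10x and 5000 Drop-seq barcodes, 3320 and 4901 were kept (at least 500 or 300 UMIs, 300 or 200 genes, at most 20% mitochondrial). The methods shared 0 barcodes. Scrublet marked 0 barcodes, so doublets were not removed. Cells were clustered with scanpy 1.11.5 (Leiden, resolution 0.5) without the members. A cluster was called "X-like" from at least 3 markers at 2-fold or more and at least 20 CPM, with at least 1 marker of that class among its 10 leading genes and no other class with more there. The conditions on leading genes left 10x clusters 10 and 12 and Drop-seq cluster 4 unnamed, each with 8 of 8 markers of a class (endothelial, T cell and endothelial). A further rule, that these be at least 50% of the class's detected markers, was set after the clusters were seen. It was not met by 10x clusters 3, 5 and 9 (21.5%, 6.08% and 6.96% of cells) and Drop-seq cluster 2, the Matn4 cluster (25.4%), which had at least 3. The Matn4 cluster as reference was also chosen then. For folds 0.5 UMI was added to each sum. Intervals cover counting error only.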

Additional observations from a re-analysis of the deposited data

Results flagged for a closer look

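In groups of 4 Ras tumours, the highest or lowest sample of 2 genes lay far from the other 3, by the gap to its neighbour divided by the group's range, on log2 CPM (above Dixon's critical value for 4 samples). Tm7sf2, a sterol reductase, gave 0.867 in the PLX3397 group, where tumour 2 had 6.62 CPM and the others 11.9 to 13. On CPM without the log the same ratio was 0.827, just below the critical value, so this call holds on the log2 scale only. Lipa gave 0.852 in the vehicle group, where tumour 1 had 78.4 CPM and the others 52.3 to 55.6. With 62 groups screened, chance alone flags about 1 in 20.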

How the results depend on the processing

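The number of genes called depended on the tool. DESeq2 called 178 genes in the Ras tumours, 1980 in CD11b+ cells and 2047 between the lines, with 1 member among the last (Nr1h3), and fits with no filter on low counts called 1, 1907 and 1. Without Ras line 2 the lines gave 2111 calls, and 0 to 2111 over the lines left out. No call of a member was lost under another tool, scaling or filter, and single CD11b+ mice left out give no test. The median log2 fold of the other-side genes was 0.12 to 0.50 in CD11b+ cells with 1 treated mouse left out. Between the lines it was -0.15 to 0.38, with -0.15 without Ras line 1. The median of the synthesis enzymes was 0.25 to 0.66 between the lines and -0.34 to 0.21 in the Ras tumours. The cause was not tested. In the Ras tumours 3 pathway genes changed sign with a tumour left out: Rnf139 (-0.22 to 0.023) without vehicle 4, Nus1 (-0.17 to 0.15) without vehicle 4 or PLX3397 1, and Coq2 (-0.14 to 0.15) without PLX3397 1, with their ranges over the tumours left out. With the replicate number as a block, 0 genes and 0 members were called in the Ras tumours and in the lines. The median of the synthesis enzymes was then -0.14 and 0.37. Same-numbered Ras tumours correlated at 0.11, 0.13, -0.42 and 0.45 in their deviations. Not every tumour correlated best with its own number. Deviations within a group sum to 0, so these values cannot decide whether the tumours were paired. The numbers are those of the sample titles, and the headers of the count columns carry others. Vehicle tumour 3 and PLX3397 tumour 1, whose headers share a number, correlated at 0.58. Lines numbered 1 correlated at -0.18 and lines numbered 2 at -0.11. With 2 Ras lines the deviations mirror each other, so these values cannot decide whether the lines were paired. For CD11b+ cells no paired analysis was possible because the groups share only 1 number. In 10x, the lysosomal level of macrophage-like cells was 1713 CPM at Leiden resolution 1.0, the export level of microglia-like cells 359 with at least 1000 UMIs per cell, and their lysosomal level 1469 with at most 10% mitochondrial counts. Added after seeing the data: of the 18 synthesis enzymes in 10x, 12 were lower in macrophage-like cells at 3-fold (26.9% of all genes) and 16 at 1.5-fold (51.1%), 13 against the Mki67 (39.7%) or the H19 cluster (36.3%), and 11 with microglia-like cells instead (30.4%). In Drop-seq 8 of 10 fell to 5 at 3-fold (16.1% of all genes), and 6 of 11 were lower against the Mki67 cluster (30.6%). Depth limits Drop-seq, where 12 of the 31 genes had under 50 UMIs.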
